A study of Mus musculus with 9 samples.

Results

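Interferon-stimulated genes are the genes that cells switch on when an interferon binds its receptor, and 34 of them were followed through thymocytes that differ in 1 residue of CD3ε. The 34 were chosen by name among the 31053 genes listed in the RNA matrices and kept in 2 lists. The type I list has 25 genes that answer above all to type I interferon, and the interferon gamma list has 9 genes for immunity-related and guanylate-binding GTPases, which type I interferon can also induce. Single-cell RNA sequencing was carried out on thymocytes of adult female mice, sorted by surface CD4 and CD8 into a CD4 gate of CD4+CD8- cells, a CD8 gate of CD4-CD8+ cells (both single-positive, SP) and a double-positive (DP) gate of CD4+CD8+ cells. Mutant mice carry I173A in CD3ε, which transmits signals of the T cell receptor (TCR), and the others are wild type (WT); antibodies with an oligonucleotide tag marked I173A cells with hashtag 6 and WT cells with hashtag 4. Each gate was 1 library that mixed both genotypes, so a genotype is 1 sample per gate, and gate and library cannot be told apart. No replicate animals are marked in the labels, and how many mice gave cells is not stated there.

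Type I interferons bind the receptor of Ifnar1 and Ifnar2, and interferon gamma binds that of Ifngr1 and Ifngr2. Through Janus kinases the type I receptor activates a complex with Stat2 and Irf9 that binds the interferon-stimulated response element (ISRE), while signals of the interferon gamma receptor act through the gamma-activated site (GAS). In the thymus, interferon made by epithelial and dendritic cells acts on thymocytes at the late stages of their maturation, and the products of these genes restrict viruses and intracellular microbes.

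Promoters of these genes were searched for the letters of both elements. Of these promoters, 11 are printed because their genes carry differences described further on or share motifs. A RefSeq window (GRCm38.p6) of 250 bases before to 50 bases after the gene start was found for 25 of the 34; Zbp1, Gbp4, Iigp1, Ifi27l2a, Mx1, Dhx58, Parp14, Rtp4 and Usp18 had none. An ISRE core, searched as GAAA, NN and GAAA in 1 run on both strands with overlaps allowed, stood in 11 of 18 windows of the type I list and in 6 of 7 of the interferon gamma list, against 3.99% of the 27025 genes with a window. The letters TTCNNNGAA (GAS, both strands) stood in 3 of 18 and 4 of 7, against 9.55% of all genes, and both motifs together in 1 of 18 and 4 of 7, against 0.614%. Each sequence below runs 5′ to 3′ on the strand of its gene, with the matches in capitals and 25 further bases on each side. A match is a description of letters and not of a bound site. Isg15, Ifit1, Ifit3, Ifit3b and Bst2 belong to the type I list, and the other 6 to the interferon gamma list.
Isg15 (chr4:156200850-156200921, minus strand): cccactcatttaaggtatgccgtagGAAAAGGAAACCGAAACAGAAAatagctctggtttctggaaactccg
Ifit1 (chr19:34640760-34640838, plus strand): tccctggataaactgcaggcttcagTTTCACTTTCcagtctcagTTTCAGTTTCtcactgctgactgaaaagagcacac
Ifit3 (chr19:34583348-34583441, plus strand): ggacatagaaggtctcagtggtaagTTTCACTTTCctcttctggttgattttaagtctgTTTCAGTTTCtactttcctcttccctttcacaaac
Ifit3b (chr19:34607744-34607837, plus strand): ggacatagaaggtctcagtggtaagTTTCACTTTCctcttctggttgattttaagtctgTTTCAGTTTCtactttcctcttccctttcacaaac
Bst2 (chr8:71537562-71537633, minus strand): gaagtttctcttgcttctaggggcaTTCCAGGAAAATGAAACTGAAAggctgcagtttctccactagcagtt
Igtp (chr11:58199486-58199556, plus strand): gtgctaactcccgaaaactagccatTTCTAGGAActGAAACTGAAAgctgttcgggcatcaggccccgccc
Tgtp1 (chr11:48992289-48992359, minus strand): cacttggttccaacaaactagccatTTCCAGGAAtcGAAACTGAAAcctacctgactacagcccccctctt
Tgtp2 (chr11:49064248-49064318, minus strand): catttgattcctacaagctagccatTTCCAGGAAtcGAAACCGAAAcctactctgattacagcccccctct
Gbp2 (chr3:142620579-142620638, plus strand): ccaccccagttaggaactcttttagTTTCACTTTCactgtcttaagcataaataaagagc
Gbp7 (chr3:142530205-142530317, plus strand): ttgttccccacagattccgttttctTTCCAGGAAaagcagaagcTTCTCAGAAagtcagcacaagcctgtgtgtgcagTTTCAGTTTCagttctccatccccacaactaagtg
Irgm1 (chr11:48871410-48871475, minus strand): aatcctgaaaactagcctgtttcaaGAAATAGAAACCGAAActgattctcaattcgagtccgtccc

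Isg15, Bst2 and Irgm1 held chains of overlapping ISRE cores whose first bases lay 6 bases apart. In Bst2 a GAS also began 6 bases before the first core and overlapped it. Ifit3 and Ifit3b, neighbours on chromosome 19, were identical over all 94 bases shown, with 2 cores whose first bases lay 34 bases apart. Igtp, Tgtp1 and Tgtp2, all on chromosome 11, had the same arrangement of a GAS followed by an ISRE core, with the first bases 11 apart in each. Position by position, Tgtp1 and Tgtp2 shared 53 of 71 bases, Igtp and Tgtp2 45 of 71, and Igtp and Tgtp1 42 of 71. Because Tgtp1 and Tgtp2, like Ifit3 and Ifit3b, are near copies of each other, the division of reads within either pair is uncertain.

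The cells behind the values were 2664 I173A and 3109 WT cells in the CD4 gate, 2872 I173A and 3017 WT cells in the CD8 gate, and 2706 I173A and 2516 WT cells in the DP gate. Their unique molecular identifiers (UMIs, single captured transcripts) totalled 16766444, 17634074 and 8659807 in I173A cells of the CD4, CD8 and DP gates, against 20534690, 22544044 and 10119851 in WT cells. Levels are UMIs per 1000000 UMIs of the group (CPM), and ratios are I173A over WT with exact 95% intervals that cover counting error only. With 1 sample a group no test was possible, and "higher" and "lower" describe these samples. Zbtb7b, which directs the CD4 lineage, was at 97.1 CPM in I173A and 108 CPM in WT CD4 cells and at 0 and 0.133 CPM in CD8 cells. In DP cells Rag1, which cuts TCR genes for rearrangement, was at 1232 CPM in I173A and 1049 CPM in WT, and in CD8 cells Nkg7, a gene of cytotoxic cells, at 672 and 516 CPM. The libraries shared 124, 109 and 109 cell barcodes in pairs, about 1.2% to 1.4% of a library. Cd3e was at 1443 CPM in I173A and 1343 CPM in WT CD4 cells, 1440.3 and 1197 CPM in CD8 cells, and 1757 and 1366 CPM in DP cells; these counts take in both alleles and do not check the substitution.

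The first pattern was the step between the DP gate and the single-positive gates, which spans the maturation of thymocytes. Both lists were higher in single-positive cells of either genotype, the type I list by far more than the interferon gamma list. The type I list summed to 3386 CPM in I173A and 3730 CPM in WT CD4 cells, 3159 and 2519 CPM in CD8 cells, and 559 and 487 CPM in DP cells. The interferon gamma list summed to 829, 853 and 432 CPM in I173A CD4, CD8 and DP cells, against 1032, 752 and 380.2 CPM in the WT gates. In WT cells the type I list was 7.66-fold (7.44 to 7.88) higher in the CD4 than in the DP gate and 5.17-fold (5.02 to 5.32) higher in the CD8 than in the DP gate. The interferon gamma list was 2.71-fold (2.62 to 2.81) and 1.98-fold (1.91 to 2.05) higher. Against DP cells the median gene moved the other way, by -0.26 on the log2 scale for CD4 over DP and -0.41 for CD8 over DP, while for CD4 over CD8 it moved with the lists, by 0.17. Relative to that median the type I list was 9.16-fold and 6.88-fold higher than in DP cells.

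Of the 24 type I genes with a mean of at least 5 CPM in the gates compared, 23 were at least 2-fold higher in WT CD4 than in WT DP cells, against 8.59% of all genes at that level, and so were 7 of 9 interferon gamma genes. In the CD8 gate these counts were 20 of 24 and 5 of 8, against 6.88% of all genes. In I173A cells they were 21 of 24 and 6 of 9 for CD4, against 7.94% of genes, and 23 of 25 and 4 of 8 for CD8, against 7.61%. Ifi27l2a (ENSMUSG00000079017), a small mitochondrial protein gene of the Ifi27 family, was at 1299, 1185 and 34.2 CPM in I173A CD4, CD8 and DP cells, against 1343, 923 and 30.9 CPM in the WT gates. It made up 38.4% of the type I list's UMIs in I173A and 36.0% in WT CD4 cells, while Bst2, which tethers virus particles to the cell surface, led that list in DP cells with 15.2% and 17.3%. Without Ifi27l2a the rise of the list over DP in WT was 5.23-fold in CD4 and 3.496-fold in CD8 cells.

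A few members were present before the single-positive stage. Gbp4 (ENSMUSG00000079363), a guanylate-binding protein gene, was at 102, 73.4 and 148 CPM in I173A CD4, CD8 and DP cells, against 125, 67.6 and 137 CPM in the WT gates. Gbp4 was thus lowest in the CD8 gate and highest in the DP gate in both genotypes, with a CD8 to DP ratio of 0.494 (0.459 to 0.531) in WT. Igtp, an immunity-related GTPase, had 119.6, 99.5 and 118 CPM in I173A CD4, CD8 and DP cells, against 142, 85.1 and 92.9 CPM in the WT gates; the WT CD4 to DP ratio was 1.53 (1.42 to 1.64) and the CD8 to DP ratio 0.916 (0.847 to 0.991). Stat2 (ENSMUSG00000040033), a subunit of the complex that binds the ISRE, was at 32.1, 22.1 and 34.2 CPM in I173A CD4, CD8 and DP cells, against 35.0, 21.3 and 33.6 CPM in the WT gates, and its WT ratio was 1.04 (0.913 to 1.19) for CD4 to DP and 0.634 (0.550 to 0.730) for CD8 to DP.

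Other members were all but absent from DP cells. Ifit3, an RNA-binding antiviral gene, had 7 UMIs in I173A and 6 in WT DP cells, against 354 and 620 in CD4 and 739 and 814 in CD8 cells. For Ifit3b the DP counts were 0 in I173A and 1 in WT, where 0 of 8659807 UMIs allows up to 0.346 CPM. Oasl2, a member of the oligoadenylate synthetase family, had 5 UMIs in I173A and 4 in WT DP cells, and 444 and 699 in CD4 cells. Mx1, a GTPase against influenza viruses, had at most 9.70 CPM in any group. Iigp1, another immunity-related GTPase, was at 18.9 CPM in I173A and 23.6 CPM in WT CD4 cells, 5.27 and 5.72 CPM in CD8 cells and 0.346 and 1.19 CPM in DP cells.

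**Figure D1:**
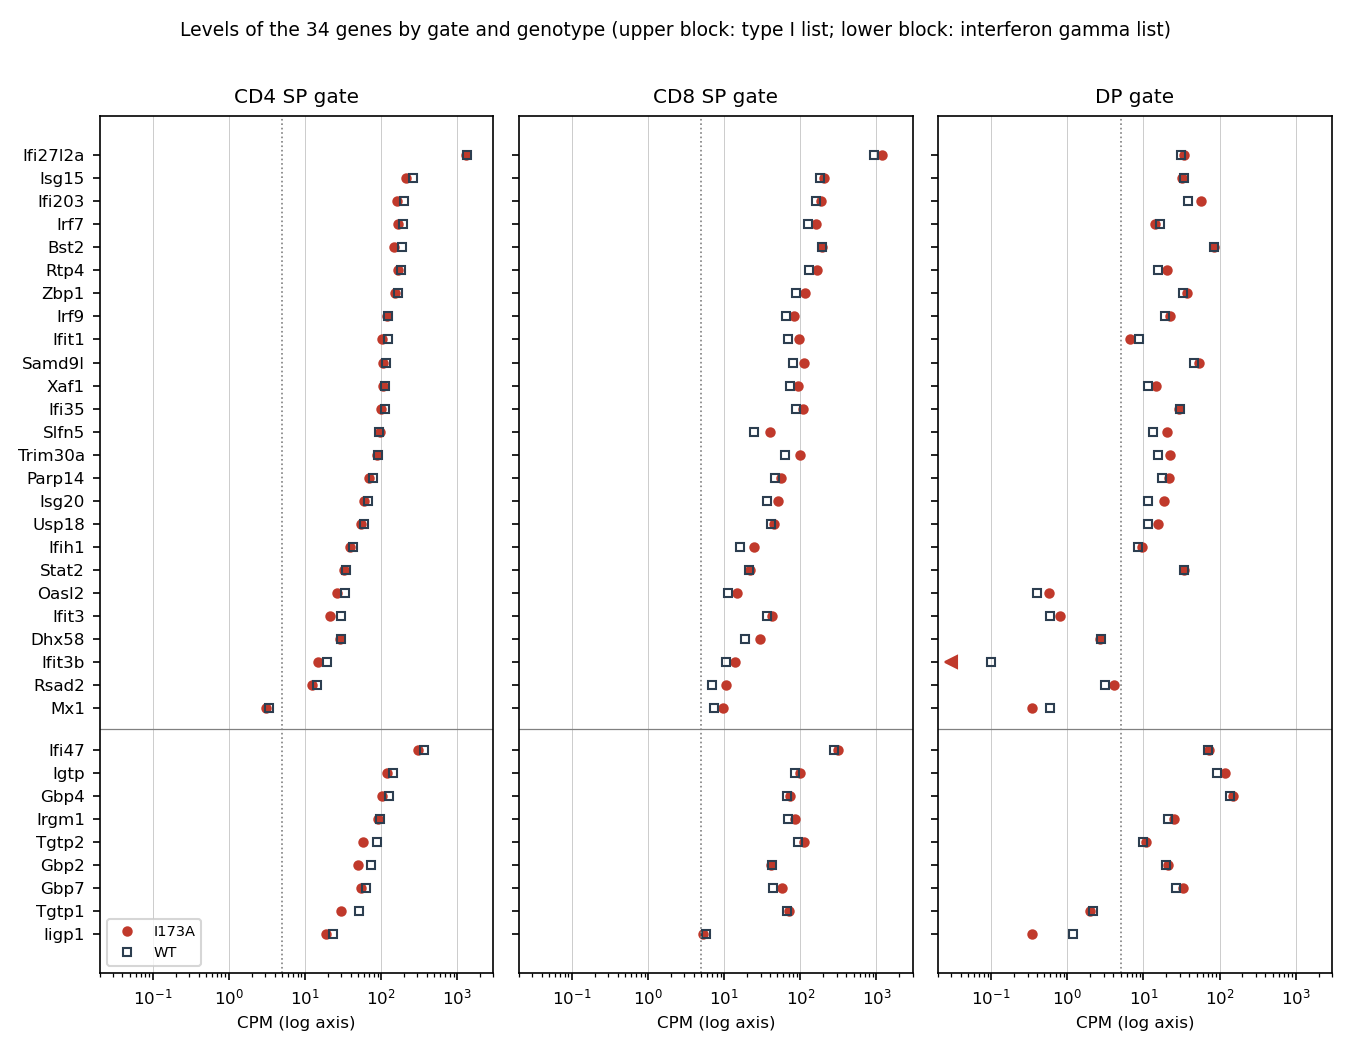
Level of each of the 34 genes in CPM (log axis) in I173A (filled circles) and WT (open squares) cells of the CD4, CD8 and DP gates; the triangle at the left edge marks a count of 0 and the dotted line 5 CPM. Most type I genes lie to the right of 5 CPM in both single-positive gates and shift to the left in DP cells, while Gbp4 lies furthest to the right in the DP gate.

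**Figure D2:**
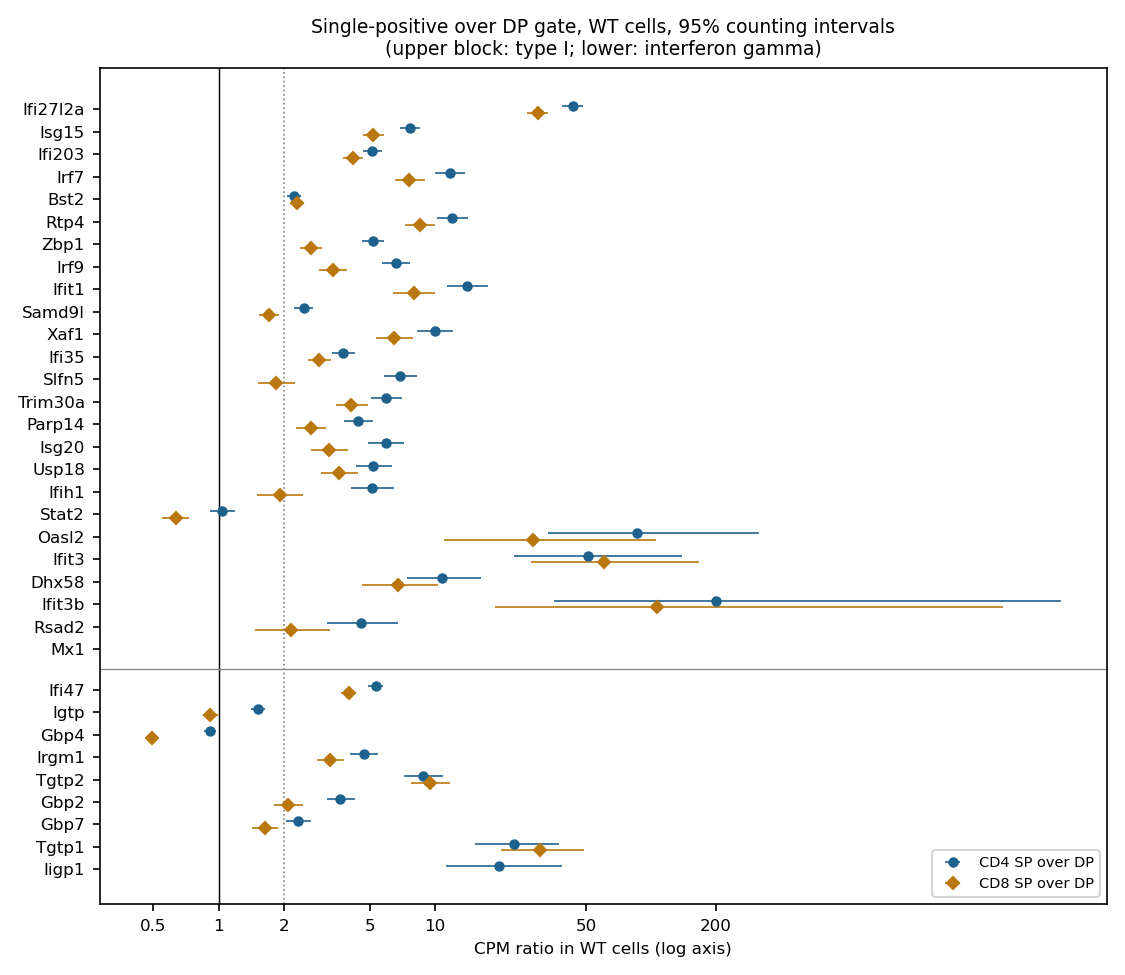
Ratio of CPM (log axis) between the CD4 (circles) or CD8 (diamonds) gate and the DP gate in WT cells for each gene at a mean of 5 CPM or more, with 95% counting intervals; the dotted line marks 2-fold. Ifi27l2a stands at 43.4 for CD4 and 29.9 for CD8, and the points of Gbp4 and Stat2 lie near or below 1.

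The second comparison set I173A against WT within a gate; the title of the study speaks of a mutation that strengthens TCR signals. In CD4 cells nearly all measured members were lower in I173A. The summed type I list was 0.908 (0.898 to 0.918) of WT and the interferon gamma list 0.803 (0.786 to 0.820). By gene, 23 of 24 measured type I genes and all 9 interferon gamma genes were lower in I173A, where 38.1% of all measured genes were lower by any amount. Lower by at least 20% were 7 of 33, against 2.08% of 9243 genes, and higher by at least 25%, the same fold, were 0 of 33, against 5% of genes. The median log2 ratio was -0.17 for the type I list and -0.30 for the interferon gamma list, beside 0.04 for all genes. Cycling cells were 1.91% of I173A and 1.87% of WT CD4 cells, and without them the list ratios were 0.912 (0.902 to 0.922) and 0.802 (0.784 to 0.819), with 8 of 33 lower by at least 20%, against 2.14% of genes, and 0 higher by at least 25%, against 5.23%.

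The lowest ratios in CD4 cells were those of Tgtp1 and Tgtp2. Tgtp1 (ENSMUSG00000078922), an immunity-related GTPase first known from T cells, was at 29.5, 70.3 and 1.96 CPM in I173A CD4, CD8 and DP cells, against 50.7, 66.8 and 2.17 CPM in the WT gates. Its near copy Tgtp2 (ENSMUSG00000078921) was at 58.1, 111 and 10.9 CPM in I173A CD4, CD8 and DP cells, against 87.6, 93.8 and 9.88 CPM in the WT gates. In CD4 cells the ratios were 0.582 (0.522 to 0.648) and 0.663 (0.613 to 0.718), and with the pair summed, which removes the uncertain division of reads, 0.634 (0.594 to 0.675). Both members of the pair were lower in I173A CD4 cells. In CD8 cells the ratios were 1.05 (0.976 to 1.14) and 1.18 (1.11 to 1.26), with 1.13 (1.07 to 1.18) for the pair, and in DP cells that of the pair was 1.06 (0.815 to 1.39).

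Gbp2, a guanylate-binding GTPase that attacks membranes around microbes, was at 49.9, 40.8 and 21.2 CPM in I173A CD4, CD8 and DP cells, against 72.7, 41.8 and 19.9 CPM in the WT gates. The Gbp2 ratio was 0.686 (0.629 to 0.747) in CD4, 0.975 (0.883 to 1.08) in CD8 and 1.07 (0.871 to 1.31) in DP cells. Of the other 6 genes of that list, Ifi47 was at 305, 309.6 and 73.2 CPM in I173A CD4, CD8 and DP cells, against 370.1, 278 and 69.6 CPM in the WT gates. It carried 36.8% of the list's UMIs in I173A and 35.9% in WT CD4 cells, with a ratio of 0.825 (0.796 to 0.855) in CD4, 1.11 (1.07 to 1.15) in CD8 and 1.05 (0.944 to 1.17) in DP cells. Igtp had ratios of 0.843 (0.796 to 0.893) in CD4, 1.17 (1.10 to 1.249) in CD8 and 1.27 (1.16 to 1.39) in DP cells, and Gbp4 of 0.813 (0.764 to 0.865) in CD4, 1.08 (1.01 to 1.17) in CD8 and 1.08 (1.00 to 1.17) in DP cells. Irgm1, which regulates the other immunity-related GTPases, had a ratio of 0.927 in CD4 cells, the nearest to 1 on that list, with 0.878 for Gbp7 and 0.802 for Iigp1.

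Among the type I genes, the lowest ratios in CD4 cells were those of Ifit3, Ifit3b, Oasl2 and Bst2. Ifit3 was at 21.1 CPM in I173A and 30.2 CPM in WT CD4 cells, a ratio of 0.699 (0.612 to 0.798), Ifit3b at 14.7 and 19.7 CPM, 0.749 (0.637 to 0.879), and Oasl2 at 26.5 and 34.04 CPM, 0.778 (0.689 to 0.878). Bst2 was at 148, 195 and 84.9 CPM in I173A CD4, CD8 and DP cells, against 187, 195 and 84.2 CPM in the WT gates, and its ratio was 0.788 (0.749 to 0.829) in CD4, 1.00 (0.960 to 1.05) in CD8 and 1.01 (0.912 to 1.11) in DP cells. These 4 are all the type I genes lower by at least 20% in CD4 cells. Isg15 (ENSMUSG00000035692), a ubiquitin-like protein joined to other proteins during infection, was at 215, 204 and 31.9 CPM in I173A CD4, CD8 and DP cells, against 265, 179.6 and 34.5 CPM in the WT gates. Isg15 ratios were 0.813 (0.779 to 0.848) in CD4, 1.14 (1.08 to 1.19) in CD8 and 0.924 (0.786 to 1.09) in DP cells.

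Among the type I genes that regulate the pathway itself, Irf7, which amplifies transcription of type I interferon genes, was at 165, 159 and 14.2 CPM in I173A CD4, CD8 and DP cells, against 191, 125 and 16.3 CPM in the WT gates. The Irf7 ratio was 0.861 (0.820 to 0.904) in CD4, 1.28 (1.21 to 1.35) in CD8 and 0.871 (0.684 to 1.11) in DP cells. Irf9 and Stat2, subunits of the complex that binds the ISRE, had CD4 ratios of 0.947 (0.893 to 1.00) and 0.919 (0.821 to 1.03), which reach or hold 1, and Usp18, which removes Isg15 from proteins and restrains the receptor, had 0.897 (0.822 to 0.978). Ifi27l2a was nearly level in CD4 cells, with ratios of 0.967 (0.950 to 0.985) in CD4, 1.28 (1.26 to 1.31) in CD8 and 1.11 (0.940 to 1.30) in DP cells. The 1 measured type I gene that was not lower in I173A CD4 cells was Slfn5, of the Schlafen family, at 97.6 CPM in I173A and 93.2 CPM in WT.

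In CD8 cells the same genes stood the other way. The summed type I list was 1.254 (1.24 to 1.27) of WT in I173A and the interferon gamma list 1.13 (1.11 to 1.16). All 25 type I genes and 7 of 9 interferon gamma genes were higher in I173A, where 55.3% of measured genes were higher by any amount, and 19 of 34 were higher by at least 25%, against 10.6% of genes; 0 were lower by at least 20%, against 10.9%. Median log2 ratios were 0.37 and 0.15, beside 0.03 for all genes. Of the 33 genes measured in both gates, 30 were lower in I173A CD4 cells and higher in I173A CD8 cells, against 16% of all genes measured in both. Without cycling cells 17 of 33 were, against 15.6%. Whether the gates differ was not tested.

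That CD8 difference was smaller or turned round without the cells of clusters with cell-cycle markers. Such cells were 8.32% of I173A and 16.04% of WT cells in the CD8 gate and held 17.7% and 35.9% of its UMIs. Cycling cluster 8 of that gate, with 38 I173A and 200 WT cells, had a type I level of 290.2 CPM in I173A and 281 CPM in WT, and cycling cluster 12 (33 and 101 cells) 504 and 389 CPM. Cycling cluster 9 (159 and 169 cells) stood at 2975 CPM in I173A and 3139 CPM in WT, and the 3 CD8 SP-like clusters lay between 2986 and 3988 CPM. Without cycling cells the type I ratio in the CD8 gate was 1.02 (1.01 to 1.04) and that of the interferon gamma list 0.943 (0.921 to 0.965), the opposite direction. Without them 17 of 25 type I and 2 of 9 interferon gamma genes were higher, where 58.1% of genes were, and 5 were higher by at least 25%, against 4.28% of genes, and 1 lower by at least 20%, against 2.16%. Clusters 8, 12 and 14 also carry markers of rearranging DP cells, such as Endou, and cluster 9 does not, so leaving out cycling cells also leaves out immature ones. Without clusters 8, 12 and 14 alone, an alternative chosen after the data were seen, the CD8 ratios were 1.02 (1.00 to 1.03) for type I and 0.934 (0.913 to 0.955) for interferon gamma. Without cluster 9 alone they were 1.30 (1.28 to 1.31) and 1.17 (1.15 to 1.20). The separate parts of cycling and immaturity in the CD8 difference were not tested. With clusters weighted alike in both genotypes, cycling ones included, the CD8 ratios were 1.03 and 0.953.

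The 5 members still higher by at least 25% in CD8 cells without cycling cells were Slfn5, Trim30a, Ifih1, Dhx58 and Rsad2. Slfn5 was at 97.6, 40.3 and 20.7 CPM in I173A CD4, CD8 and DP cells, against 93.2, 24.8 and 13.4 CPM in the WT gates. The Slfn5 ratio was 1.05 (0.979 to 1.12) in CD4, 1.62 (1.45 to 1.82) in CD8 and 1.54 (1.22 to 1.94) in DP cells, and 1.27 (1.14 to 1.43) in CD8 and 1.12 (0.887 to 1.41) in DP cells without cycling cells. Trim30a, a tripartite motif protein, was at 87.2, 97.8 and 22.2 CPM in I173A CD4, CD8 and DP cells, against 92.4, 63.9 and 15.5 CPM in the WT gates. For Trim30a the ratio was 0.944 (0.881 to 1.01) in CD4, 1.53 (1.43 to 1.64) in CD8 and 1.43 (1.15 to 1.78) in DP cells, and 1.29 (1.19 to 1.39) in CD8 and 1.09 (0.871 to 1.38) in DP cells without cycling cells. Both genes were thus past the 25% in all DP cells, but not without the cycling ones. Ifih1 and Dhx58 encode MDA5 and LGP2, 2 members of 1 family of helicases that sense viral RNA in the cytoplasm. Ifih1 was at 24.3 CPM in I173A and 16.3 CPM in WT CD8 cells, or 1.49 (1.30 to 1.72) of WT, and Dhx58 at 29.9 and 18.7 CPM, or 1.60 (1.40 to 1.82) of WT. Without cycling cells their CD8 ratios were 1.29 (1.11 to 1.51) and 1.29 (1.13 to 1.49). Dhx58 in the CD4 gate, at 29.0 CPM in I173A and 29.9 CPM in WT, had a ratio of 0.968 (0.857 to 1.09), and in DP cells it was under 5 CPM, at 2.66 and 2.77 CPM. Rsad2, the radical SAM enzyme viperin, was at 12.3, 10.7 and 4.16 CPM in I173A CD4, CD8 and DP cells, against 14.4, 6.88 and 3.16 CPM in the WT gates. Its CD8 ratio was 1.56 (1.254 to 1.94), that in CD4 cells 0.856 (0.714 to 1.03), and in CD8 cells without cycling cells it was 1.26 (1.01 to 1.58). The 1 member past that fold in the other direction was Iigp1, then at 5.99 CPM in I173A and 8.44 CPM in WT, 0.710 (0.533 to 0.943) of WT.

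Other genes had ratios near 1 or below it in CD8 cells without the cycling cells. Ifi27l2a had 1228 CPM in I173A and 1196 CPM in WT, a ratio of 1.03 (1.01 to 1.05). Isg15 was at 225 CPM in I173A and 248 CPM in WT, a ratio of 0.906 (0.864 to 0.951), and Ifi203, of the HIN-200 family of DNA-binding proteins, at 199.3 and 218 CPM, 0.912 (0.867 to 0.959). Tgtp1 was at 80.0 CPM in I173A and 94.8 CPM in WT, 0.844 (0.780 to 0.913), and Gbp2 at 45.8 and 55.3 CPM, 0.827 (0.745 to 0.918). Isg15, Ifi203, Tgtp1 and Gbp2 were thus lower in I173A in both single-positive gates once cycling cells were left out.

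**Figure D3:**
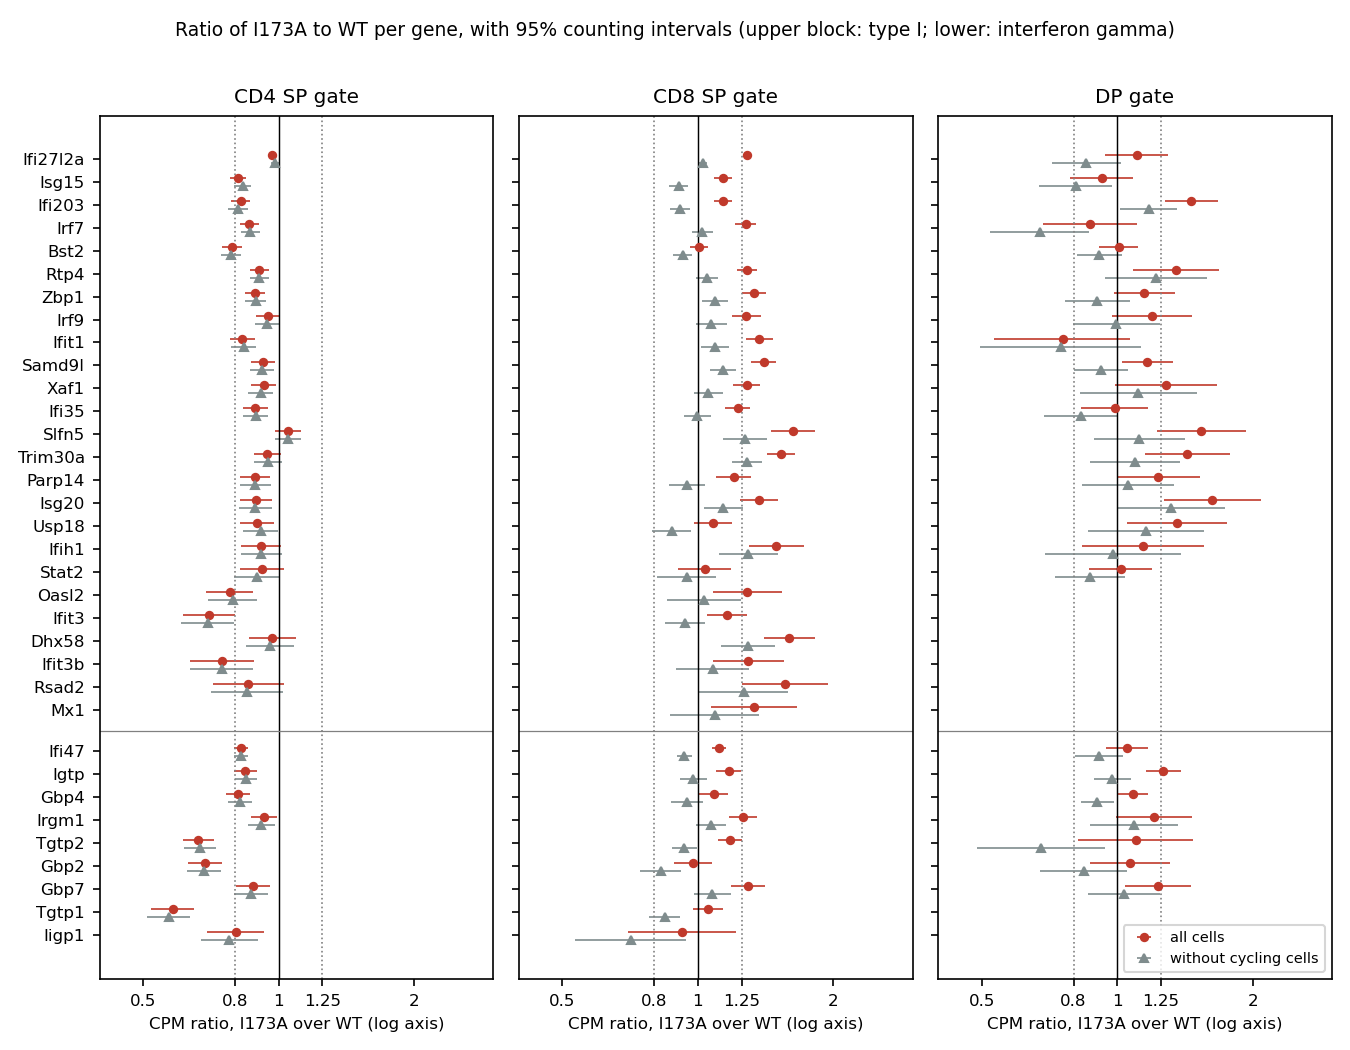
Ratio of I173A to WT CPM (log axis) for each gene at a mean of 5 CPM or more, by gate, for all cells (circles) and without cells of cycling clusters (triangles), with 95% counting intervals; dotted lines mark 20% lower and 25% higher. In the CD4 gate both sets of points lie left of 1 for all genes but Slfn5, and in the CD8 and DP gates the triangles lie to the left of the circles.

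Markers of other cell types differed between genotypes in some gates. The 10 macrophage or dendritic markers summed to 237 CPM in I173A and 112 CPM in WT CD8 cells. Of the 10, 3 were at 5 CPM or more, and which markers carried the higher sum was not examined. Lyz2 and C1qa, 2 of the 10, were under 5 CPM, at 0.340 and 0.227 CPM in I173A, against 0.577 and 0.311 CPM in WT. In the CD4 gate the same list summed to 102 CPM in I173A and 98.1 CPM in WT, and in DP cells to 196 and 195 CPM. Behind the level DP sum, Lyz2 was at 9.93 CPM in I173A and 3.66 CPM in WT DP cells, a ratio of 2.72 (1.83 to 4.11). C1qa was at 3.23 and 2.08 CPM there, 1.56 (0.854 to 2.89). Plasmacytoid dendritic markers, from cells known for making interferon, summed to 45.6, 104 and 1399 CPM in I173A CD4, CD8 and DP cells, against 19.5, 206 and 1186 CPM in the WT gates, with 2 or 3 of 6 at 5 CPM or more. Siglech, which defines that cell type, had 43, 11 and 0 UMIs in I173A CD4, CD8 and DP cells, against 0 in each WT gate, and Tcf4 and Ly6d of that list were also among the marker genes found in rearranging DP-like cells. Without the cluster of macrophage or dendritic-like cells and the low-RNA clusters the type I ratios were 0.906, 1.26 and 1.15 in the CD4, CD8 and DP gates, and the interferon gamma ratios 0.803, 1.14 and 1.13. The 7 markers of rearranging DP cells summed to 144 CPM in I173A and 487 CPM in WT CD8 cells, and to 22.6 and 21.2 CPM once cycling cells were left out, so these transcripts lay mostly in the cycling clusters.

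In DP cells the type I list was 1.15 (1.10 to 1.19) of WT in I173A and the interferon gamma list 1.14 (1.08 to 1.19). Of 26 members measured there, 22 were higher in I173A, where 62.7% of genes were higher, and 8 were higher by at least 25%, against 16.3% of genes; 1, Ifit1, was lower by at least 20%, against 10.5%. Cycling cells, all of clusters 8, 12 and 14, were 4.69% of I173A and 15.5% of WT DP cells and held 14.9% and 40.8% of the UMIs. Without them the ratios were 0.957 (0.916 to 1.00) and 0.929 (0.884 to 0.976), 10 of 26 members were higher, where 54.2% of genes were, 1 was higher by at least 25%, against 8.13%, and 3 lower by at least 20%, against 4.43%. The 1 higher was Isg20, an exonuclease that degrades RNA, at 19.8 CPM in I173A and 15.03 CPM in WT, and the 3 lower were Irf7, Ifit1 and Tgtp2, at 15.7, 6.51 and 9.63 CPM in I173A, against 23.4, 8.69 and 14.2 CPM in WT. Their ratios were 0.673 (0.521 to 0.867), 0.749 (0.496 to 1.13) and 0.678 (0.488 to 0.940). The interval of Ifit1 thus held 1, as it did over all DP cells, at 0.757 (0.533 to 1.07). Igtp, at 1.27 (1.16 to 1.39) over all DP cells, was at 0.975 (0.887 to 1.07) without cycling cells.

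The remaining type I genes were all lower in I173A CD4 and higher in I173A CD8 cells with all cells counted. Ifi203 was at 164, 185 and 56.7 CPM in I173A CD4, CD8 and DP cells, against 199.8, 162 and 38.8 CPM in the WT gates. The Ifi203 ratio was 0.823 (0.784 to 0.864) in CD4, 1.14 (1.09 to 1.19) in CD8 and 1.46 (1.28 to 1.67) in DP cells, and without cycling cells 0.912 (0.867 to 0.959) in CD8 and 1.17 (1.01 to 1.36) in DP cells. Rtp4, which helps receptors reach the cell surface, was at 167, 168 and 20.7 CPM in I173A CD4, CD8 and DP cells, against 184, 130.5 and 15.3 CPM in the WT gates, with ratios of 0.906 (0.863 to 0.952) in CD4, 1.29 (1.22 to 1.36) in CD8 and 1.35 (1.08 to 1.68) in DP cells. Zbp1, a sensor of Z-form nucleic acids that can trigger cell death, was at 150.2, 117 and 37.5 CPM in I173A CD4, CD8 and DP cells, against 169, 87.6 and 32.7 CPM in the WT gates. Zbp1 ratios were 0.887 (0.842 to 0.934) in CD4, 1.33 (1.251 to 1.42) in CD8 and 1.15 (0.982 to 1.34) in DP cells. In DP cells the interval of Zbp1 held 1, and those of Ifi203 and Rtp4 did not. Without cycling cells the Rtp4 ratio was 1.05 (0.991 to 1.11) in CD8 and 1.22 (0.942 to 1.58) in DP cells, and both intervals held 1. The Zbp1 ratio was then 1.09 (1.02 to 1.16) in CD8 and 0.904 (0.765 to 1.07) in DP cells.

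Samd9l, which restrains poxviruses and cell growth, was at 106, 111 and 54.0 CPM in I173A CD4, CD8 and DP cells, against 115, 79.3 and 46.3 CPM in the WT gates, with ratios of 0.923 (0.867 to 0.982) in CD4, 1.40 (1.31 to 1.49) in CD8 and 1.17 (1.02 to 1.33) in DP cells. Ifi35 was at 99.9, 107 and 29.6 CPM in I173A CD4, CD8 and DP cells, against 113, 87.5 and 29.9 CPM in the WT gates. The Ifi35 ratio was 0.887 (0.832 to 0.944) in CD4, 1.22 (1.15 to 1.31) in CD8 and 0.987 (0.833 to 1.17) in DP cells. Isg20 was at 60.1 CPM in I173A and 67.4 CPM in WT CD4 cells, 50.4 and 36.8 CPM in CD8 cells, and 18.5 and 11.4 CPM in DP cells, where its ratio of 1.63 (1.27 to 2.08) was the highest of the measured members, and in CD4 and CD8 cells the ratios were 0.891 (0.820 to 0.967) and 1.37 (1.24 to 1.51). Without cycling cells the CD8 ratios were 1.14 (1.06 to 1.22) for Samd9l, 0.997 (0.931 to 1.07) for Ifi35 and 1.14 (1.03 to 1.26) for Isg20. Xaf1, a partner of the apoptosis inhibitor XIAP, had ratios of 0.926, 1.28 and 1.28 in the CD4, CD8 and DP gates, Parp14, an ADP-ribosyltransferase, of 0.887, 1.20 and 1.23, and Ifit1, which binds viral RNA caps, of 0.831, 1.37 and 0.757. Their CD8 ratios without cycling cells were 1.05 for Xaf1, 0.947 for Parp14 and 1.09 for Ifit1.

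The level of both lists climbed along the stages that the clusters describe. The clusters were built without the 34 genes and the other interferon genes, and they carry names from marker genes. In WT cells the type I list was at 563 CPM in rearranging DP-like cells of the DP gate (cluster 0), 2045 CPM in signalled SP-like cells of the CD4 gate (cluster 2) and 4639 CPM in mature SP-like cells (cluster 1). In I173A cells these levels were 591, 1892 and 4476 CPM. The interferon gamma list was at 458, 667 and 1004 CPM in the same clusters of I173A cells, against 478, 746 and 1219 CPM in WT cells. Mature SP-like cells were 46.2% of I173A and 52.5% of WT CD4 cells, and signalled SP-like cells 34.5% and 29.1%, so the I173A gate held fewer cells of the stage with the higher level. With the clusters weighted alike in both genotypes the type I ratio in CD4 cells was 0.944 in place of 0.908, and that of the interferon gamma list 0.819 in place of 0.803.

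Within clusters the interferon gamma list was lower in I173A through the CD4 gate. In mature SP-like cells it was at 1004 CPM in I173A and 1219 CPM in WT, a ratio of 0.824 (0.801 to 0.847), with 9 of 9 genes lower, against 44.5% of all genes measured in those cells. In signalled SP-like cells it was at 667 and 746 CPM, 0.894 (0.856 to 0.935), with 6 of 9 lower, against 42.5%. Cluster 7, named agonist-selected-like from Tnfrsf9, Tnfrsf18, Nfkbid and other markers and led by Xcl1, Lad1 and Ccl4, had Foxp3 of regulatory T cells at 8.20 CPM over all its cells, against 78.8 CPM in innate-like cluster 15. Agonist-selected-like cells (254 and 249 cells) had 782 CPM in I173A and 1173 CPM in WT, 0.667 (0.620 to 0.717), and innate-like cells (74 and 100 cells), which thus carry a regulatory T cell marker as well, 761 and 1144 CPM, 0.665 (0.595 to 0.743). The summed type I list was closer to WT in mature SP-like cells, with 0.965 (0.952 to 0.978), and stood at 0.925 in signalled SP-like, 0.922 in agonist-selected-like and 0.798 in innate-like cells. By gene, 20 of 24 type I genes were lower and 4 higher in mature SP-like cells, against 44.5% of all genes lower. Ifi27l2a, with the most UMIs of the list, was among the higher ones there. It was at 1812 CPM in I173A and 1700 CPM in WT, a ratio of 1.07 (1.04 to 1.09). In agonist-selected-like cells Tgtp1, whose promoter with its GAS and ISRE core is printed above, was at 9.49 CPM in I173A and 46.8 CPM in WT, and Tgtp2 at 48.1 and 86.2 CPM. Gbp2 in that cluster was at 44.3 CPM in I173A and 109.6 CPM in WT, a ratio of 0.404 (0.302 to 0.536).

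In the CD8 gate the 3 CD8 SP-like clusters (3, 4 and 5) had type I ratios of 1.00 (0.981 to 1.03), 0.993 (0.973 to 1.01) and 1.02 (0.993 to 1.05), and each interval held 1. The interferon gamma list was lower in I173A in all 3, at 932 CPM in I173A and 997 CPM in WT, 979 and 1075 CPM, and 1001 and 1091 CPM, with ratios of 0.934, 0.911 and 0.918. Agonist-selected-like cells of the CD8 gate (107 and 117 cells) went the other way, with 3362 CPM in I173A and 2783 CPM in WT of the type I list and 886 and 750.5 CPM of the interferon gamma list. Rearranging DP-like cells of the DP gate had 591 CPM in I173A and 563 CPM in WT of the type I list and 458 and 478 CPM of the interferon gamma list, with ratios of 1.05 (0.997 to 1.10) and 0.958 (0.906 to 1.01). Isg15 in those cells was at 28.8 CPM in I173A and 39.8 CPM in WT, and Ifi27l2a at 27.6 and 18.6 CPM.

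**Figure D4:**
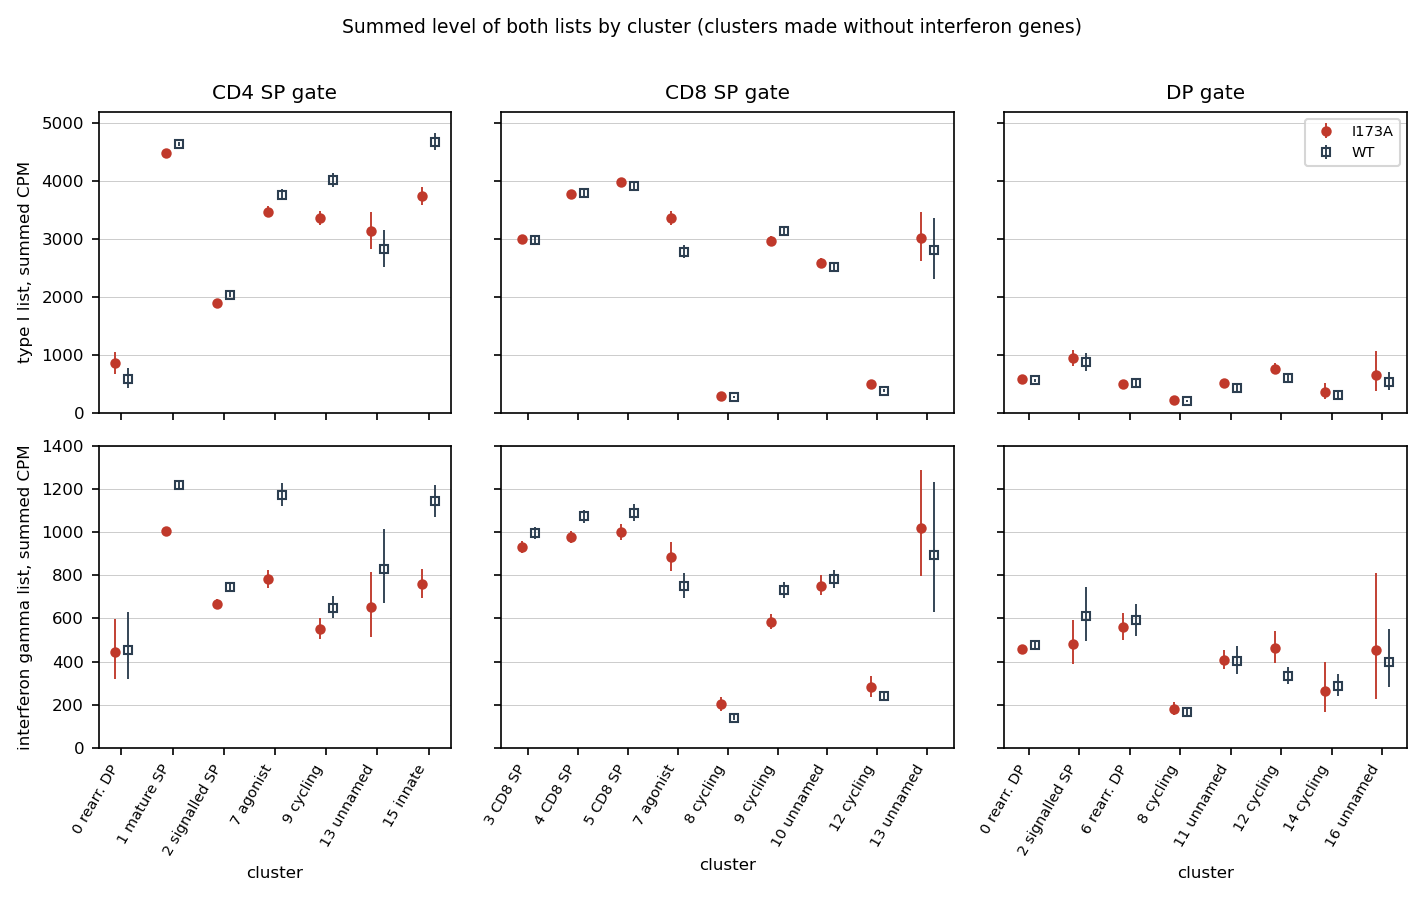
Summed CPM of the type I list (top) and the interferon gamma list (bottom) by cluster and gate in I173A (filled circles) and WT (open squares) cells, for clusters with at least 20 cells of each genotype, with 95% counting intervals. The type I level climbs from cluster 0 to clusters 2 and 1 in both genotypes, cycling clusters 8 and 12 lie low, and the interferon gamma list lies lower in I173A in the mature, agonist-selected-like and innate-like clusters of the CD4 gate.

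Many single-positive cells and few DP cells held several type I UMIs. To compare cells of unequal depth, each was thinned to 1500 UMIs, which left out 37 I173A and 47 WT cells in CD4, 69 and 51 in CD8 and 288 and 310 in DP. With 5 or more type I UMIs were 40.4% (38.5% to 42.3%) of I173A and 46.3% (44.5% to 48.1%) of WT CD4 cells, 42.1% (40.3% to 44.0%) and 39.8% (38.0% to 41.5%) of CD8 cells, and 1.57% (1.11% to 2.15%) and 1.54% (1.07% to 2.15%) of DP cells. Before thinning these shares were 78.4%, 83.9% and 7.54% of I173A CD4, CD8 and DP cells, against 83.5%, 83.4% and 7.23% in the WT gates. The tenth of DP cells with the most type I UMIs held 48.2% of the list's UMIs in I173A and 51.2% in WT, while in CD4 cells the corresponding shares were 35.3% in I173A and 33.7% in WT.

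Cells with more type I UMIs also had more of the interferon gamma list, which shares no gene with it. In CD4 cells the interferon gamma list was at 464 CPM in I173A and 449 CPM in WT cells without a type I UMI, and at 1809 and 2157 CPM in cells with 10 or more. In CD8 cells without a type I UMI it was at 496 CPM in I173A and 356 CPM in WT, and in those with 10 or more at 1761 and 2029 CPM. The DP gate held 13 I173A and 14 WT cells with 10 or more type I UMIs, and in them the interferon gamma list was at 2821 CPM (2125 to 3671) in I173A and 5381 CPM (4435 to 6469) in WT. In DP cells without any it was at 419.5 CPM in I173A and 389.7 CPM in WT. The intervals for the 13 and 14 cells rest on 55 and 113 UMIs and leave out the spread between cells. The most interferon gamma UMIs in 1 thinned DP cell were 13 in I173A and 34 in WT. Which clusters the 13 and 14 cells belong to was not examined. The DP gate also gave 46.8% of the cells of macrophage or dendritic-like cluster 17 and 4.38% of those of signalled SP-like cluster 2. These classes come from the same cells and libraries, so the climb is a description.

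**Figure D5:**
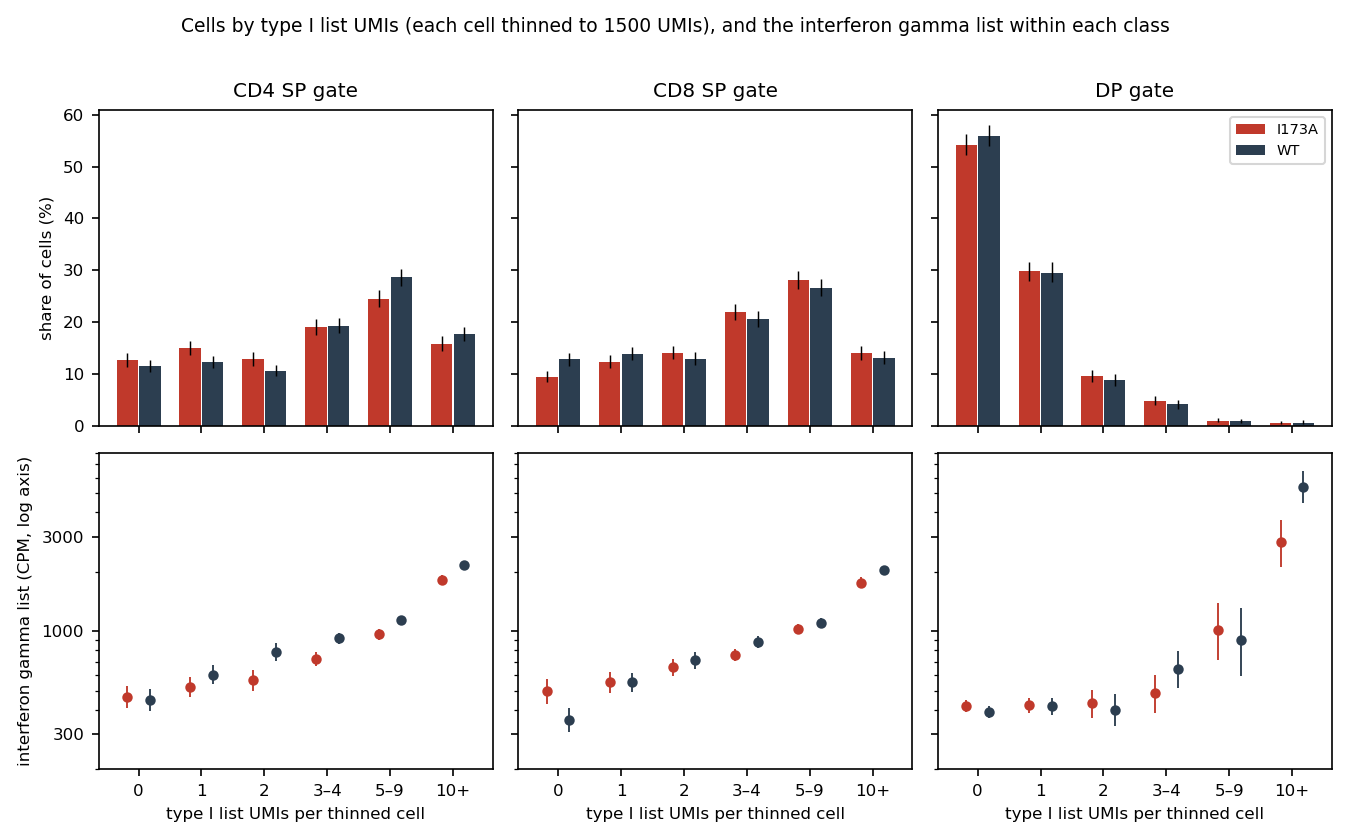
Top, share of cells in percent by the number of type I list UMIs per cell after thinning to 1500 UMIs; bottom, CPM of the interferon gamma list (log axis) within the same classes, for I173A (red, left of each pair) and WT (dark, right), with 95% intervals. In both single-positive gates the interferon gamma list climbs over the classes, and in DP cells it is level up to 2 UMIs and highest in the 13 and 14 cells with 10 or more.

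No transcript was counted of the type I interferon genes listed, Ifnb1, Ifna1, Ifna2, Ifna4, Ifne and Ifnk, or of the lambda interferon genes Ifnl2 and Ifnl3. Each had 0 UMIs in all 6 groups, which allows up to 0.133 CPM in the deepest and 0.346 CPM in the shallowest group. Ifng, the gene of interferon gamma, had 14 UMIs in I173A and 16 in WT CD4 cells, 1 and 0 in CD8 cells, and 0 and 0 in DP cells.

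Receptor genes were slightly higher in I173A CD4 cells. All 5 measured ones were higher there, where 61.9% of all genes were, and none by 25%. Ifnar1 was at 79.5 CPM in I173A and 73.7 CPM in WT CD4 cells, Ifnar2 at 80.5 and 69.4 CPM, Ifngr1 at 97.9 and 83.4 CPM and Ifngr2 at 107 and 91.7 CPM. Ifngr1, the ligand-binding chain for interferon gamma, was instead high in DP cells, at 673 CPM in I173A and 604 CPM in WT, against 97.8 and 118 CPM in CD8 cells. Socs1, which blocks Janus kinases under both receptors, was likewise highest in DP cells, at 488 CPM in I173A and 414 CPM in WT, against 164 and 159.6 CPM in CD4 and 109.4 and 98.5 CPM in CD8 cells. In DP cells, where the lists were low, both Ifngr1 and Socs1 were thus at their highest, and without cycling cells their DP ratios were 1.07 (1.02 to 1.11) and 0.984 (0.939 to 1.03).

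Of the 9 measured signal transducers, 7 were lower in I173A CD4 cells, where 38.1% of all genes were. Irf1, a transcription factor induced by interferon, was at 152, 132 and 46.5 CPM in I173A CD4, CD8 and DP cells, against 182, 123 and 51.0 CPM in the WT gates. Its ratio was 0.835 (0.794 to 0.879) in CD4 cells and 1.07 (1.01 to 1.13) in CD8 cells, or 0.893 (0.841 to 0.949) without cycling cells. The kinase genes Jak1, Jak2 and Tyk2 had CD4 ratios of 1.07, 0.937 and 0.986 and CD8 ratios of 1.33, 1.16 and 1.24. Without cycling cells their CD8 ratios were 1.10 (1.07 to 1.14), 0.992 (0.875 to 1.13) and 1.09 (0.926 to 1.29), none of them higher by 25%. Irf1 was thus lower in I173A in both single-positive gates without cycling cells, as were Isg15, Tgtp1 and Gbp2.

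Among targets outside the 34, too, more were lower than higher in I173A CD4 cells. Of 40 other type I targets measured in CD4 cells 28 were lower in I173A, and of 16 other interferon gamma targets 14 were, where 38.1% of all genes were lower. Lower by at least 20% were 5 and 3 of them, against 2.08% of all genes. Ly6a, the surface protein Sca-1, was at 88.9 CPM in I173A and 126 CPM in WT CD4 cells, Ifi213, of the HIN-200 family, at 71.5 and 95.6 CPM, and Cd274, the gene of PD-L1, at 22.0 and 29.4 CPM. Gbp5, another guanylate-binding gene, was at 6.14 CPM in I173A and 8.33 CPM in WT and Psme2, a subunit of the proteasome activator, at 399.8 and 488 CPM. In CD8 cells 35 of 38 other type I targets and 15 of 17 other interferon gamma targets were higher, against 55.3% of all genes, and without cycling cells 26 of 38 and 8 of 17 were, against 58.1%. The 8 of 17 lie below that share. The exceptions in CD8 cells took in Ly6a, at 19.3 CPM in I173A and 27.9 CPM in WT, and Ly6e, at 1136 and 1373 CPM. In DP cells 17 of 24 and 11 of 13 were higher, where 62.7% of all genes were, with Trim34a at 21.1 CPM in I173A and 12.6 CPM in WT and Ifit2 at 21.4 and 27.5 CPM.

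Inhibitor and sensor genes stood on both sides of 1 in CD4 cells. Of 6 inhibitors 2 were lower in I173A, near the 38.1% of all genes, with Socs3, which damps signals of other cytokines, at 10.2 CPM in I173A and 14.95 CPM in WT, while Socs1 had a ratio of 1.03 (0.980 to 1.08). Of 6 measured sensors of nucleic acids 2 were lower in CD4 cells, again near that share. Without cycling cells 4 of 6 were lower there, against 3508 of 9147 genes, and the summed sensor ratio was 1.00 (0.961 to 1.04). In CD8 cells 6 of 7 were higher, against 55.3% of all genes, and without cycling cells 4 of 6, against 58.1%. In DP cells all 5 were higher, against 62.7%, with Tmem173, the gene of STING, at 14.2 CPM in I173A and 7.02 CPM in WT and a ratio of 2.02 (1.4996 to 2.75). Without cycling cells all 5 were higher, against 54.2% of all genes, 2 of them by at least 25%, against 8.13%.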

How the data were processed

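The deposited RNA matrices hold UMI counts per gene and cell, as the authors left them; Cell Ranger 6.0.1 and the build GRCm38, also called mm10, stand in the submitters' processing notes, per the labels, and the matrices give software version 3.1.0, per the file headers. The deposited hashtag tables hold counts of antibody tags, per the labels. A cell was given a genotype if its hashtag had at least 10 counts and at least 4 times every other hashtag; cells with several hashtags were left out as doublets, and no doublet caller was run. Cells under 500 genes or over 10% mitochondrial UMIs were dropped. UMIs were summed per genotype and gate and divided by the group's total, with exact Poisson (level, ratio) and Clopper-Pearson (share) intervals from SciPy 1.17.1. The ratio intervals were tried on simulated Poisson counts without spread between cells or animals, so that trial cannot show how they cover such spread. Such intervals and limits at a count of 0 (3 UMIs) cover counting error only. Genes at a mean of 5 CPM or more counted as measured, and 25% higher or 20% lower, the same fold, between genotypes and 2-fold between gates were the sizes counted.

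Clusters came from Scanpy 1.11.5 and leidenalg 0.10.2 on 2000 variable genes, without TCR and immunoglobulin segments and without interferon genes, with 30 components, 15 neighbours and a resolution of 1. The 18 clusters were named from markers, and the names are rebuilt ones, not the study's. Thinning drew 1500 UMIs per cell. The 34 members, the lists and the tests were chosen with earlier results of these data known. All members are named, in full those with the most UMIs and those past 1.5-fold. Alternatives changed the hashtag rule, cell filter, cells included, weighting, scaling, floor, fold and thinning depth. TCR files and cells of hashtag 5, which has no genotype label, were left out of the comparisons of genotypes and of gates. The hashtag 5 cells were clustered with the others. Marker levels and gate shares of whole clusters therefore take them in. Figures were drawn with matplotlib 3.10.9 under Python 3.11.15 and NumPy 2.4.6.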

Additional observations from a re-analysis of the deposited data

Results flagged for a closer look

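Both lists stood on opposite sides of 1 in the CD4 and CD8 gates. The type I ratio of I173A to WT was 0.908 in CD4 and 1.254 in CD8 cells, and the interferon gamma ratio 0.803 and 1.13. By gene, 30 members were lower in I173A CD4 cells and higher in I173A CD8 cells, of 33 measured in both and against 16% of all genes, and without cycling cells 17 of 33 were, against 15.6%. The difference between the gates was not tested, and in CD8 cells without cycling cells the type I ratio was 1.02 and the interferon gamma ratio 0.943.

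Cells with hashtag 5, for which the labels give no genotype, entered the clustering but no comparison of genotypes or gates. Their type I list stood at 4526 CPM in the CD4, 3236 CPM in the CD8 and 671 CPM in the DP gate, and their interferon gamma list at 1143, 887 and 426 CPM. In all 3 gates the type I values lay above those of both I173A and WT cells, and so did the interferon gamma values in the CD4 and CD8 gates.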

How the results depend on the processing

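Of the results on lists and counts, 139 moved by less than their interval or count margin, 56 moved by more and 12 changed direction; of those on single members, 419, 45 and 1. No result moved that far under the looser hashtag rule, without the cell filter, or without other cell types and low-RNA clusters. Ratios are I173A over WT, in the order CD4, CD8 and DP where 3 are given.

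Leaving out cycling cells changed most in CD8 and DP cells. The type I ratio became 1.02 in CD8 and 0.957 in DP cells, and the interferon gamma ratio 0.943 and 0.929. The median log2 ratio became 0.076 (type I) and -0.10 (interferon gamma) in CD8 cells and -0.034 and -0.13 in DP cells. Members 25% higher or 20% lower became 5 higher and 1 lower in CD8 and 1 higher and 3 lower in DP cells, and Igtp in DP cells turned to 0.975. Leaving out only the cycling clusters with markers of rearranging DP cells, a choice made after seeing the data, gave 1.02 (type I) and 0.934 (interferon gamma) in CD8 and 0.957 and 0.929 in DP cells; leaving out only the other cycling cluster gave 1.30 and 1.17 in CD8 cells. With equal cluster shares the type I ratios were 0.944, 1.03 and 1.04, and the interferon gamma ratios 0.953 in CD8 and 0.988 in DP cells. With equal weight per cell they were 0.895, 1.08 and 1.07 for type I, and 0.997 in CD8 and 1.02 in DP cells for interferon gamma. Scaling by the median ratio gave 0.886, 1.23 and 1.08 for type I and 0.784, 1.11 and 1.07 for interferon gamma, with an interferon gamma median of 0.056 in DP cells. Without Ifi27l2a the type I ratio was 0.874 in CD4 and 1.24 in CD8 cells. At a fold of 1.5, 2 members were lower in CD4, 4 higher in CD8, and 2 higher and 0 lower in DP cells; with a floor of 10 CPM, 0 were lower in DP cells.

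For the gates, I173A cells in place of WT gave type I ratios of 6.06 (CD4 over DP), 5.65 (CD8 over DP) and 1.07 (CD4 over CD8), and interferon gamma ratios of 1.92 (CD4 over DP) and 0.972 (CD4 over CD8). In WT cells without cycling cells the type I ratios were 6.03, 5.41 and 1.11, and the interferon gamma ratios 2.12 (CD4 over DP) and 1.06 (CD4 over CD8). Equal weight per cell gave 7.17, 6.02 and 1.19 for type I and 2.44, 2.10 and 1.16 for interferon gamma, and scaling by the median ratio 9.16, 6.88 and 1.32, and 3.25, 2.63 and 1.22. Over DP, the CD4 and CD8 ratios were 5.23 and 3.496 for type I without Ifi27l2a, and 2.13 and 1.52 for interferon gamma without Ifi47. The cause was not tested for these changes. No paired analysis was possible because each genotype is 1 sample per gate. Depth limits members under 5 CPM, above all in the DP gate, where 8 of 34 could not be compared.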

Other observations

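Socs3 was the inhibitor gene with the lowest CD4 ratio, and in CD8 cells, too, it was lower in I173A, at 17.01 CPM, against 20.6 CPM in WT, a ratio of 0.827 (0.712 to 0.958). Ly6e, an interferon-induced surface protein, was at 2072 CPM in I173A and 2298 CPM in WT DP cells, a ratio of 0.902 (0.884 to 0.919). In CD4 cells Ly6e was higher in I173A, at 983 CPM, against 879 CPM in WT, the direction opposite to that of 32 of the 33 measured members.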
